A study of Homo sapiens with 16 samples.

Results

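The expression of 10 genes that sense DNA and RNA in the cytosol, or that pass the signal on, was examined in clear cell renal cell carcinoma (ccRCC) cells mutated in KDM5C or KDM5D. The genes were listed by name because KDM5 enzymes are known as repressors of STING1. The rule uses no measured value, but earlier results of these data were known when the genes were chosen. They were CGAS, STING1, RIGI, IFIH1, DHX58, MAVS, TBK1, IRF3, TLR3 and ADAR. All 10 were found among the 57773 genes of the count table, and all 10 passed the filter of at least 60 counts summed over the libraries, which left 20175 genes for testing. Bulk RNA-seq had been performed on 16 libraries of 4 established human ccRCC lines, namely A498, 769-P, 786-O and CAKI-2. For every line the table held a control library with a non-targeting guide (sgCtrl, n = 1) and 2 libraries with guides against KDM5C (sgKDM5C 4 and 5). For 786-O and CAKI-2 it also held 2 libraries with guides against KDM5D (sgKDM5D 2 and 4), the Y-linked counterpart of KDM5C.

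All groups, controls included, had been infected with a lentivirus carrying Cas9, a guide and a resistance gene. The sgCtrl and sgKDM5C populations were selected in puromycin, and the selection of the sgKDM5D populations is not given in the sources used here. The cells were mixed populations rather than clones, so that each population can hold several mutations as well as unedited copies. Both KDM5C guides cut exon 8, in the part that encodes the first PHD domain, while the KDM5D guides cut exons 2 and 4. A group of mutants thus consisted of 2 populations with different guides (n = 2). P-values therefore measure the spread between guide populations of the same line and genotype. In the main fit this spread was shared over all lines and genotypes, so that a p-value in 1 line does not reflect the guide spread of that line alone. Every comparison with sgCtrl rests on a single control library per line.

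Cells detect foreign or misplaced nucleic acid through receptors that bind it directly. Cyclic GMP-AMP synthase (CGAS) binds double-stranded DNA and makes a cyclic dinucleotide that activates STING1 on the endoplasmic reticulum. RIG-I (RIGI) and MDA5 (IFIH1) are helicases that bind viral or otherwise unusual RNA and signal through MAVS on mitochondria, LGP2 (DHX58) modulates both of them, and TLR3 reads double-stranded RNA inside endosomes. These routes converge on the kinase TBK1, which phosphorylates the transcription factor IRF3 and so switches on type I interferon genes, whereas ADAR edits double-stranded RNA and keeps the cell's own transcripts from activating MDA5. Interferon in turn raises many of the sensors, RIGI, IFIH1, DHX58 and TLR3 among them.

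The libraries held between 23.4M and 41.6M counts (M, mega). KDM5C transcript stood at 0.262 to 0.573 of the control of its line in the 8 sgKDM5C libraries and at 0.915 to 1.06 in the 4 sgKDM5D libraries. The KDM5D transcript was at 0.791 and 0.762 of the control in the libraries labelled sgKDM5D of 786-O and at 1.03 and 1.02 in those of CAKI-2, while the sgKDM5C libraries of 786-O stood at 0.660 and 0.858, so that the transcript level does not check the sgKDM5D label. Of 7 renal tubule and ccRCC markers, 5 to 7 per line reached 1 CPM. KRT8, KRT18, PAX8, PAX2 and VIM did so in every line, NDUFA4L2 in CAKI-2 and A498 alone and CA9, a marker of ccRCC, in A498 alone. PAX8 lay between 145 and 968 CPM (counts scaled to a library of 1M, with TMM factors), and PTPRC and CD3E, which define leukocytes and T cells, had at most 2 counts and 0 counts in a library. Of 7 immune markers, 1 per line reached 1 CPM, namely CSF1R in 786-O and ITGAX in the other lines. The immune markers summed to 77.6 to 99.3 CPM in CAKI-2 and 66.0 to 86.5 CPM in A498. The sums were 6.87 to 9.76 CPM in 786-O and 2.35 to 3.25 CPM in 769-P. The endothelial markers CDH5 and VWF reached 1 CPM in CAKI-2 alone, with a sum of at most 3.36 CPM. The part of these markers in the results was not tested. The 786-O sgKDM5C 4 library stood farther from the other libraries of its line than any other did, with a root mean square log2 distance of 0.490 against 0.358 to 0.425 for the rest of 786-O.

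RefSeq promoter windows (250 bases before to 50 after the start, build GRCh38.p14) were at hand for 6 of the 10 genes, RIGI, IFIH1, MAVS, TBK1, TLR3 and ADAR. The windows of the 3 RNA sensors are shown because they hold repeats of GAAA, the core of the element through which interferon regulatory factors bind. Both strands were searched for GAAA followed by a second GAAA after a gap of 2 bases or of 1 base, patterns chosen after these sequences had been seen. Matches are in capitals (TTTC on the other strand). RIGI lies at chr9:32526147-32526446 (minus strand), IFIH1 at chr2:162318635-162318934 (minus strand) and TLR3 at chr4:186068906-186069205 (plus strand).
RIGI: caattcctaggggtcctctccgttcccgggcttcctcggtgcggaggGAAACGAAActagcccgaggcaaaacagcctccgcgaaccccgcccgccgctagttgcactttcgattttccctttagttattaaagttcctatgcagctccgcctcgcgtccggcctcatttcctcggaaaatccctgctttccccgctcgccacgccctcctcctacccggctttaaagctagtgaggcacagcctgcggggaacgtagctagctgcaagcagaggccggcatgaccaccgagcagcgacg
IFIH1: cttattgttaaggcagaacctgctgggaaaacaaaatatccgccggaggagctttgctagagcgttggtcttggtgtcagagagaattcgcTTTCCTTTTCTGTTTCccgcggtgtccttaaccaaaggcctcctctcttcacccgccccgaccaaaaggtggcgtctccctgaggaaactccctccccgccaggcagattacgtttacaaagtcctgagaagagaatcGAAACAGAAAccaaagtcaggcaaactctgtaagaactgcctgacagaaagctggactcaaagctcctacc
TLR3: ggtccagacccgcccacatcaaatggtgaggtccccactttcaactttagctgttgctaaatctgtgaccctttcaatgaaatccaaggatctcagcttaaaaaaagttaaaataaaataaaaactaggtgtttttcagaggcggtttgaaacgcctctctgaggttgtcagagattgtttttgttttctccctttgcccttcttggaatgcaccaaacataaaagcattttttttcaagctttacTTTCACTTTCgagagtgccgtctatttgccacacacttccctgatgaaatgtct
RIGI held 1 match with the gap of 1 base, whose first base was 203 bases before the start. IFIH1 held 3 matches with the gap of 2 bases, 2 of them overlapping and beginning 159 and 153 bases before the start, and the last beginning 21 bases before it. TLR3 held 1 match with the gap of 2 bases, beginning 4 bases before the start. No match was present in the windows of MAVS and TBK1 or in the 3 windows of ADAR. Of 35116 promoter windows in the same table, 3.57% held the pattern with the gap of 2 bases, 3.12% the one with the gap of 1 base and 6.4% held either. A match describes the letters of the window and not a site bound in these cells.

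STING1 (chromosome 5, 138855118 to 138862520 on GRCh37, minus strand) was the gene whose level was above the control in every KDM5C mutant population. It measured 27.2 CPM in the 786-O control, 45.9 CPM with sgKDM5C 4 and 29.4 CPM with sgKDM5C 5. In CAKI-2 it measured 19.6, 34.2 and 25.98 CPM in the same order, and in A498 78.6, 92.0 and 84.2 CPM. The 3 libraries of 769-P held 42, 59 and 67 counts, which correspond to 1.73, 2.10 and 2.76 CPM. The exact Poisson 95% intervals, which cover counting error only, ran from 1.25 to 2.34 CPM in the 769-P control and from 2.14 to 3.499 CPM with sgKDM5C 5, so that the intervals overlapped. The ratio to the control was 1.07 to 1.74, with the highest value for guide 4 in CAKI-2 and the lowest for guide 5 in A498. Among all 20175 genes tested, 1.24% were higher than the control in all 8 sgKDM5C libraries and 1.67% were lower.

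Averaged over the 4 lines, the log2 fold change of STING1 was 0.43 (SE 0.148, 95% interval 0.11 to 0.75, higher in 8 of 8 libraries). The unadjusted p was 0.0112 in the edgeR quasi-likelihood test, and the adjusted p over all genes was 0.901, so the difference did not pass the threshold. The log2 fold change was 0.47 (SE 0.267) in 786-O, 0.61 (SE 0.269) in CAKI-2, 0.16 (SE 0.260) in A498 and 0.48 (SE 0.372) in 769-P, with an edgeR adjusted p of 0.956 in A498 and of 1 in the other lines. In 786-O the value was 0.12 without the sgKDM5C 4 library and 0.75 without sgKDM5C 5. The lines were not shown to differ in this response (test of the difference between 4 lines, adjusted p = 1, unadjusted p = 0.667). Without the 786-O sgKDM5C 4 library the mean was 0.34, and over 22 alternatives it ran from 0.34 to 0.52, with an unadjusted p under 0.05 in 21 of them and an adjusted p of 0.152 to 1. Bulk RNA cannot tell fewer cells with a transcript from less transcript per cell, in this gene or in the others.

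**Figure D1:**
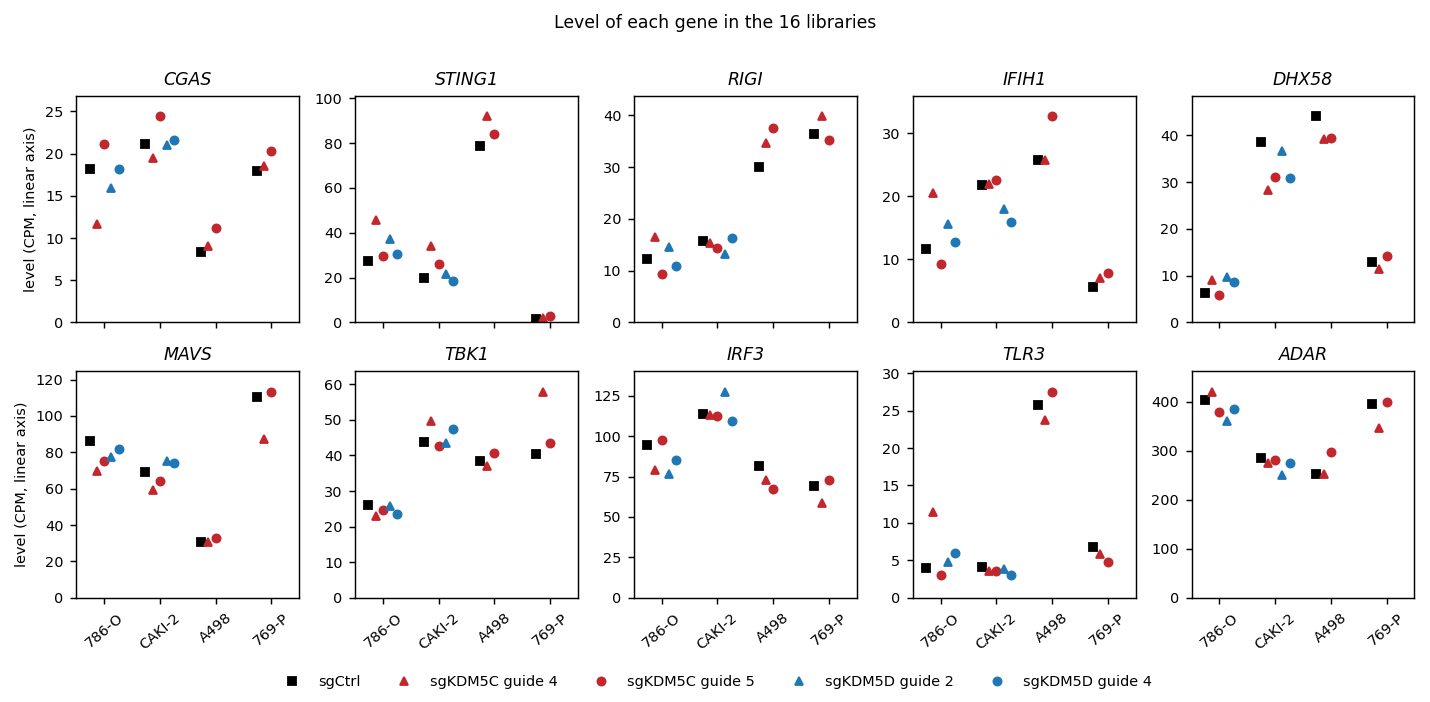
Level of the 10 genes in CPM (linear vertical axes from 0) in the 16 libraries, by line; each point is 1 library, black squares are sgCtrl, red symbols sgKDM5C and blue symbols sgKDM5D. STING1 lies between 78.6 and 92.0 CPM in A498 and between 1.73 and 2.76 CPM in 769-P, and the 786-O sgKDM5C 4 library is the highest of its line in TLR3 at 11.5 CPM.

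KDM5D mutant libraries were available for 786-O and CAKI-2. STING1 measured 37.3 and 30.5 CPM with sgKDM5D 2 and 4 in 786-O, both above the control, and 21.8 and 18.3 CPM in CAKI-2, on either side of it. The log2 fold change against the control, which is the same library that served for sgKDM5C, was 0.32 (SE 0.266) in 786-O and 0.03 (SE 0.265) in CAKI-2, and neither passed the threshold (edgeR adjusted p = 1). Set directly against the libraries labelled sgKDM5D, STING1 with sgKDM5C differed by 0.59 on the log2 scale in CAKI-2 (SE 0.216, 95% interval 0.12 to 1.05, unadjusted p = 0.0171, edgeR adjusted p = 1). Both sgKDM5C libraries of CAKI-2 lay above both sgKDM5D libraries. In 786-O the same difference was 0.15 (SE 0.213, 95% interval -0.31 to 0.61), and the groups overlapped. Without the 786-O sgKDM5C 4 library it was -0.19.

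**Figure D2:**
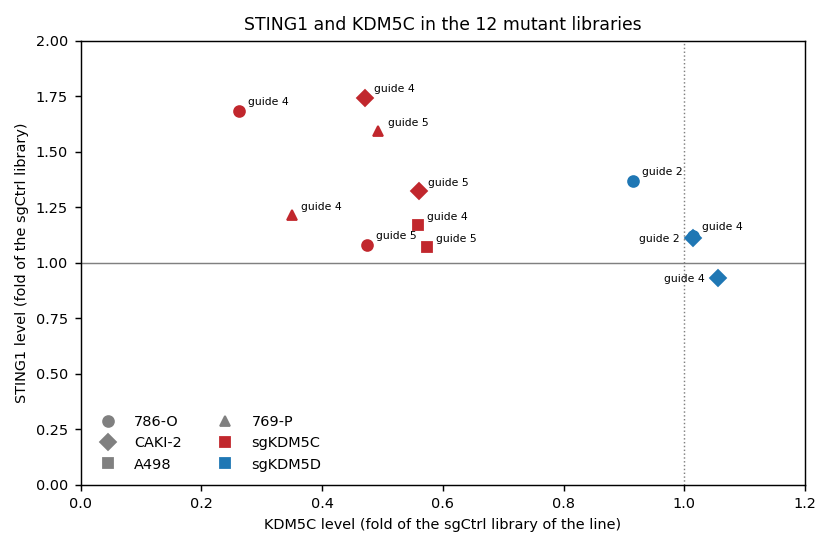
STING1 against KDM5C in the 12 mutant libraries, each axis as the fold of the sgCtrl library of the same line (linear axes); symbol shape gives the line and colour the targeted gene, and the lines mark a fold of 1. The 8 sgKDM5C libraries lie at a STING1 fold of 1.07 to 1.74 and the 4 sgKDM5D libraries at 0.930 to 1.37.

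CGAS (chromosome 6, 74123238 to 74162020, minus strand), the DNA sensor upstream of STING1, did not follow it. Its level was 18.2 CPM in the 786-O control, 11.7 CPM with sgKDM5C 4 and 21.1 CPM with sgKDM5C 5, so that the guides lay on either side of the control. With sgKDM5D it measured 15.9 and 18.2 CPM. In CAKI-2 the control, sgKDM5C 4 and 5 and sgKDM5D 2 and 4 libraries measured 21.1, 19.5, 24.4, 21.0 and 21.6 CPM. The A498 libraries measured 8.38 (control), 9.01 and 11.2 CPM, and those of 769-P 18.0, 18.6 and 20.3 CPM. CGAS was above the control in 6 of 8 sgKDM5C libraries, with a mean log2 fold change of 0.07 (SE 0.149, 95% interval -0.25 to 0.39, edgeR adjusted p = 0.998). Guide 5 was above guide 4 in each of the 4 lines, by a log2 difference of 0.44 (SE 0.159, unadjusted p = 0.0170). With an edgeR adjusted p of 0.936 it did not pass the threshold over all genes. Without the 786-O sgKDM5C 4 library the difference for CGAS was 0.27, and the unadjusted p was under 0.05 in 10 of 17 alternatives.

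The RNA sensors RIGI, IFIH1, DHX58 and TLR3 were spread widely in 786-O, where the 2 KDM5C guides lay on opposite sides of the control. RIGI (chromosome 9, 32455300 to 32526206, minus strand) measured 12.3 CPM in the 786-O control, 16.5 CPM with sgKDM5C 4 and 9.34 CPM with sgKDM5C 5. IFIH1 (chromosome 2, 163123584 to 163175194, minus strand) measured 11.6, 20.6 and 9.23 CPM in the same order. Guide 4 was above and guide 5 below the control for both helicases. DHX58 (chromosome 17, 40253422 to 40264732, minus strand) measured 6.24, 9.12 and 5.86 CPM. TLR3 (chromosome 4, 186990065 to 187009227, plus strand) measured 3.99, 11.5 and 3.05 CPM. The guide 4 library was the highest of the 5 libraries of 786-O for RIGI, IFIH1 and TLR3. RIGI shares 4471 bases of its exons (43.2%) with ENSG00000288684, a protein-coding gene on the same strand that is not among the counted genes. Reads in the shared bases cannot be told apart, so the level of RIGI may include that gene.

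For TLR3 in 786-O the log2 fold change of the 2 guides together was 0.87 (SE 0.528, 95% interval -0.26 to 2.004, edgeR adjusted p = 1). It was 1.53 without guide 5 (adjusted p = 0.0244) and -0.38 without guide 4 (adjusted p = 1). Each of these values sets 1 library against 1 control and takes its spread from the other groups, so that the lone library is assumed to vary as they do. Over 19 alternatives the adjusted p ran from 0.0244 to 1. The direction thus depended on which guide library was left out. With sgKDM5D 2 and 4 in 786-O, TLR3 measured 4.73 and 5.96 CPM, IFIH1 15.6 and 12.8 CPM and RIGI 14.7 and 10.9 CPM. DHX58 measured 9.76 and 8.72 CPM, both above the control, a log2 fold change of 0.57 (SE 0.266, unadjusted p = 0.0516, edgeR adjusted p = 1).

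In the other lines the 2 guides lay closer to each other for each of these 4 genes, which was not tested. In CAKI-2, RIGI lay between 13.1 and 16.4 CPM over the 5 libraries and IFIH1 between 15.9 and 22.6 CPM, with the 2 lowest IFIH1 values in the libraries labelled sgKDM5D. DHX58 measured 38.5 CPM in the CAKI-2 control and 28.4 to 36.6 CPM in the 4 mutant libraries, all below the control. TLR3 was low in this line, at 3.004 to 4.10 CPM. In A498, RIGI measured 30.0 CPM in the control and 34.7 and 37.6 CPM with sgKDM5C, IFIH1 25.8, 25.8 and 32.7 CPM, DHX58 44.1, 39.2 and 39.5 CPM and TLR3 25.7, 23.8 and 27.5 CPM. In 769-P, RIGI measured 36.4, 39.8 and 35.2 CPM, IFIH1 5.68, 7.01 and 7.90 CPM, DHX58 12.97, 11.5 and 14.2 CPM and TLR3 6.84, 5.80 and 4.77 CPM. Averaged over the lines, the log2 fold change with sgKDM5C was 0.07 for RIGI (SE 0.144), 0.24 for IFIH1 (SE 0.176), -0.07 for DHX58 (SE 0.124) and 0.07 for TLR3 (SE 0.251), with edgeR adjusted p of 0.901 to 1. The mean of IFIH1 ran from 0.068 without the 786-O sgKDM5C 4 library to 0.36 without sgKDM5C 5 of the same line.

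**Figure D3:**
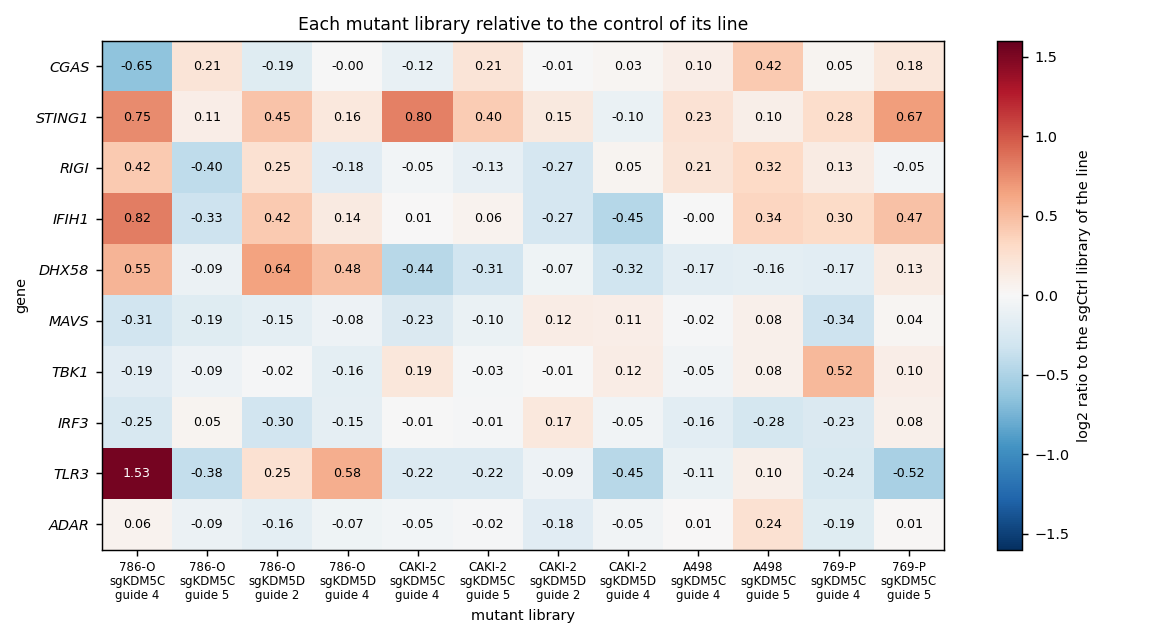
Log2 ratio of each of the 12 mutant libraries (columns) to the sgCtrl library of its line for the 10 genes (rows), red for higher and blue for lower, with the value in each cell. The row of STING1 is positive in all 8 sgKDM5C columns, and the largest ratio is that of TLR3 with sgKDM5C 4 in 786-O, at 1.53.

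MAVS, the kinase TBK1 and the transcription factor IRF3 stayed closer to the control, apart from TBK1 in 769-P with sgKDM5C 4. That library stood farther from the others of its line than they did, with a root mean square log2 distance of 0.443 against 0.366 and 0.367. MAVS (chromosome 20, 3827446 to 3856770, plus strand) measured 86.1 CPM in the 786-O control and 69.5 and 75.3 CPM with sgKDM5C 4 and 5, 68.9 against 59.0 and 64.2 CPM in CAKI-2, 30.8 against 30.4 and 32.6 CPM in A498 and 110.5 against 87.5 and 113 CPM in 769-P. It was below the control in 6 of 8 sgKDM5C libraries, with a mean log2 fold change of -0.13 (SE 0.0876, 95% interval -0.32 to 0.06, edgeR adjusted p = 0.901). TBK1 (chromosome 12, 64845870 to 64895894, plus strand) measured 26.1 CPM in the 786-O control and 22.96 and 24.6 CPM with sgKDM5C, 43.8 against 49.8 and 42.8 CPM in CAKI-2, 38.3 against 36.97 and 40.6 CPM in A498 and 40.5 against 58.0 and 43.5 CPM in 769-P. Apart from the 769-P sgKDM5C 4 library at 1.43 of its control, TBK1 stayed at 0.878 to 1.14 of the control in the mutant libraries. The mean log2 fold change with sgKDM5C was 0.07 (SE 0.0990, edgeR adjusted p = 0.952). IRF3 (chromosome 19, 50162826 to 50169132, minus strand) measured 94.3 CPM in the 786-O control and 79.1 and 97.5 CPM with sgKDM5C, 114 against 113 and 112 CPM in CAKI-2, 81.7 against 72.9 and 67.1 CPM in A498 and 68.9 against 58.6 and 72.9 CPM in 769-P. Its mean log2 fold change was -0.10 (SE 0.0936, edgeR adjusted p = 0.917), with 6 of 8 sgKDM5C libraries below the control. IRF3 shares 734 bases of its exons (19.3%) with BCL2L12 on the opposite strand, and the use of strand in counting is not given in the sources used here, so its level is uncertain.

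ADAR (chromosome 1, 154554171 to 154600489, minus strand) measured 251.2 to 420 CPM over the 16 libraries. It was at 0.875 to 1.18 of the control with sgKDM5C and its mean log2 fold change was -0.00096 (SE 0.0831, 95% interval -0.18 to 0.18). All 4 libraries labelled sgKDM5D lay below their control, at 0.882 to 0.966 of it, and the log2 fold change was -0.11 in both lines (SE 0.165 and 0.166, edgeR adjusted p = 1). These differences were within the spread between guide populations.

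At an adjusted p under 0.05, 0 of the 10 genes were called with sgKDM5C in 786-O, CAKI-2, A498 or 769-P, where 0.00991%, 0%, 0.00496% and 0.00496% of all genes were called. For the mean over the lines 0 of 10 were called (background 0.00991%), and for the difference of the response between lines 0 of 10 (background 0%). The libraries labelled sgKDM5D gave 0 of 10 in 786-O and in CAKI-2 (background 0.0149% and 0%) and 0 of 10 for the difference between these lines (background 0.00496%). The direct comparison of sgKDM5C with sgKDM5D gave 0 of 10 in both lines (background 0.0644% and 0%), and guide 5 against guide 4 gave 0 of 10 (background 0%). DESeq2 also called 0 of 10 in each of these comparisons. At an unadjusted p under 0.05, edgeR passed 1 of 10 with sgKDM5C in CAKI-2 (1.94% of all genes), 1 of 10 in the mean over lines (5.18%) and 1 of 10 in CAKI-2 against sgKDM5D (3.38%), which was STING1 each time, and 1 of 10 between the guides (3.86%), which was CGAS. It passed 0 of 10 with sgKDM5C in 786-O, A498 and 769-P (2.92%, 5.55% and 3.32%), for the difference between lines (2.29%), with sgKDM5D in 786-O, in CAKI-2 and for their difference (1.82%, 0.773% and 1.47%), and in 786-O against sgKDM5D (4.78%). The median log2 fold change of the 10 genes over the 4 lines was 0.07, against 0.04 for all genes tested.

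The larger differences were between the lines. Each of the 10 genes differed between the 4 lines at an edgeR adjusted p under 0.05, as did 90.5% of all genes, so that a difference between lines is the usual state of a gene here. The level of a line was taken as the mean of its sgCtrl and sgKDM5C groups on the log scale. Of 60 tests of a gene in a pair of lines, 40 passed. They were 4 of 10 for 786-O against CAKI-2 (63.3% of all genes), 9 of 10 for 786-O against A498 (68.7%), 7 of 10 for 786-O against 769-P (50%), 6 of 10 for CAKI-2 against A498 (65.8%), 7 of 10 for CAKI-2 against 769-P (63.8%) and 7 of 10 for A498 against 769-P (69.9%).

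STING1 had the widest range of the 10. The level in A498 was 40.6-fold that in 769-P, a log2 difference of 5.34 (SE 0.248, edgeR adjusted p = 2.94e-10). The order was A498, 786-O, CAKI-2 and 769-P. The neighbours 786-O and CAKI-2 did not pass the threshold (0.40, SE 0.186, adjusted p = 0.0762) but did so in 3 of 18 alternatives (adjusted p from 0.00815 to 0.238), while A498 was above 786-O by 1.38 (SE 0.188, adjusted p = 1.44e-05) and CAKI-2 was above 769-P by 3.57 (SE 0.232, adjusted p = 1.07e-08). CGAS was lowest in A498, the line with the most STING1, at 1.23 below CAKI-2 (SE 0.215, edgeR adjusted p = 0.00017), while no pair of CAKI-2, 769-P and 786-O passed (adjusted p from 0.195 to 0.705). CAKI-2 and 786-O passed for CGAS in 1 of 18 alternatives, without the 786-O sgKDM5C 5 library.

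The RNA sensors each had an order of their own. RIGI was high in 769-P and A498, whose difference did not pass the threshold (adjusted p = 0.481), and lower in CAKI-2 and 786-O, whose difference did not pass either (adjusted p = 0.255) but did so without the 786-O sgKDM5C 4 library (1 of 18 alternatives, adjusted p from 0.0120 to 0.617). 769-P exceeded 786-O by 1.55 (SE 0.209, adjusted p = 2.48e-05). IFIH1, in contrast, was lowest in 769-P, 2.08 below A498 (SE 0.259, adjusted p = 5.57e-06), with CAKI-2 against A498 short of the threshold (adjusted p = 0.251) and 786-O in between. DHX58 was high in A498 and CAKI-2 (difference 0.30, adjusted p = 0.135) and lowest in 786-O, 2.60 below A498 (SE 0.188, adjusted p = 2.38e-08). TLR3 stood out in A498, where it was 2.09 to 2.76 above the other lines on the log2 scale (edgeR adjusted p at most 0.000118), and no pair of the other 3 lines passed (adjusted p from 0.124 to 0.773). Each of these pairs passed for TLR3 in 1 to 3 of 18 alternatives, among them those without a 786-O sgKDM5C library.

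The downstream genes covered narrower ranges apart from MAVS. MAVS was highest in 769-P and lowest in A498 (difference 1.76, SE 0.130, adjusted p = 2.54e-08), and 786-O against CAKI-2 did not pass (0.28, SE 0.124, adjusted p = 0.0649) but did so in 2 of 18 alternatives (adjusted p from 0.0276 to 0.220). TBK1 was lowest in 786-O, 0.63 to 0.86 below the other lines (adjusted p at most 0.00116), and the pairs among these did not pass (adjusted p from 0.150 to 0.960, with 2 of the 3 pairs past the threshold in 1 of 18 alternatives, without a 769-P sgKDM5C library). IRF3 was highest in CAKI-2 and lowest in 769-P (difference 0.75, SE 0.134, adjusted p = 0.000208), and neighbours in the order CAKI-2, 786-O, A498 and 769-P did not pass (adjusted p = 0.0542, 0.0843 and 0.277). The first of these pairs passed for IRF3 in 5 of 18 alternatives and the second in 4. For ADAR neither 786-O against 769-P (adjusted p = 0.706) nor CAKI-2 against A498 (adjusted p = 0.487) passed, under any of 18 alternatives either, and 786-O exceeded A498 by 0.61 (SE 0.118, adjusted p = 0.00036).

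Between genes, levels were compared per kb of the reference transcript of each gene. IRF3 and ADAR were the 2 highest in each of the 4 lines, at 42.2 to 70.9 and 39.8 to 60.7 CPM per kb. TLR3 was the lowest in 786-O and CAKI-2, at 0.896 and 0.632 CPM per kb, and STING1 in 769-P, at 0.944 CPM per kb. These ranks held when the union of all annotated exons was used as the length. In A498 the lowest was MAVS at 2.66 CPM per kb with the reference transcript, and CGAS with the union. STING1, at 38.4 CPM per kb, came next after IRF3 and ADAR in A498.

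**Figure D4:**
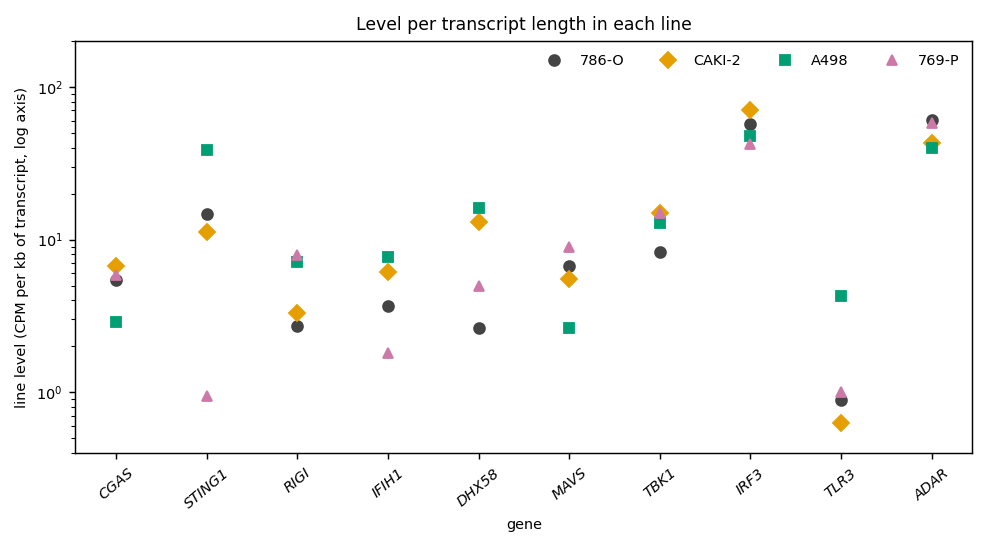
Level of each gene in each line in CPM per kb of its reference transcript (logarithmic vertical axis); each point is the log-scale mean of the sgCtrl and sgKDM5C groups of a line. STING1 spans 0.944 to 38.4 CPM per kb, while IRF3 and ADAR stay between 39.8 and 70.9 CPM per kb.

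The same comparisons were made for other genes of the pathway, in lists drawn up by their role. With sgKDM5C averaged over the lines, 0 of 16 genes of the DNA arm and 0 of 23 of the RNA arm were called. In shared signalling 0 of 17 were called and in interferon output 0 of 15, against 0.00991% of all genes. At an unadjusted p under 0.05 in edgeR, the lists in this order passed 1, 0, 2 and 3 genes, against 5.18% of all genes. Of all the mutant comparisons, 1 gene of these lists was called, BST2, which encodes tetherin, an interferon-induced protein that holds budding virus at the cell surface. It measured 18.7 CPM in the A498 control and 87.9 and 67.1 CPM with sgKDM5C 4 and 5 (log2 fold change 2.05, SE 0.231, edgeR adjusted p = 0.00854). In CAKI-2, BST2 was also above the control with both KDM5C guides, at 36.98 and 36.35 CPM against 22.02 CPM, without passing the threshold. The CAKI-2 libraries labelled sgKDM5D held 23.75 and 16.54 CPM. In 786-O, BST2 with sgKDM5C stayed close to the control, at 398.7 and 390.2 CPM against 399.5 CPM. It was low in 769-P, at 2.42 and 2.34 CPM against 2.22 CPM. Without the A498 sgKDM5C 4 library 0 genes were called in this line, so that BST2 did not pass. In the same line 13 of 15 interferon output genes lay above the control with sgKDM5C, with a median log2 fold change of 0.38 against 0.02 for all genes tested. They numbered 6 of 15 in 786-O (median -0.05), 7 of 15 in CAKI-2 (median 0) and 9 of 15 in 769-P (median 0.07), against medians of 0, 0 and 0.02 for all genes tested. The interferon output list also holds receptor chains and kinases, and genes with few counts, such as IFNLR1 with at most 5 counts in an A498 library. In A498, ISG15 was below the control, at 56.2 and 48.1 CPM with sgKDM5C 4 and 5 against 59.7 CPM. A single control library per line underlies all of these values.

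Transcripts of the 5 interferon genes in the lists were at or near 0 counts in every library. IFNB1 had at most 7 counts in a library, IFNA1 at most 8, and IFNL1 at most 7, and the counts of IFNL2 and IFNL3 were 3 and 2 at most. Of other sensors, ZBP1 had at most 1 count, TLR7 at most 2 and AIM2 at most 15, whereas IFI16, a DNA-binding protein of the nucleus and cytosol, was present at 20.9 to 177 CPM.

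Between lines, 16 of 16 genes of the DNA arm, 21 of 23 of the RNA arm, 16 of 17 of shared signalling and 15 of 15 of interferon output were called, against 90.5% of all genes. In the DNA arm the widest ranges belonged to ENPP1, DNASE2 and IFI16. ENPP1, which degrades the dinucleotide made by CGAS, had a median of 22.9 CPM over the libraries of 786-O and of 1.03 CPM over those of 769-P. DNASE2, the lysosomal nuclease, had a median of 122 CPM in A498 and 10.4 CPM in 769-P. IFI16 had medians of 159.9 CPM in A498 and 23.7 CPM in CAKI-2. A498, the line with the most STING1, was thus the highest for DNASE2 and IFI16 but not for ENPP1.

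In the RNA arm the widest ranges belonged to OAS2, CYLD and DHX9. OAS2, which makes the 2-5A that activates RNase L, had 22.5 to 35.2 CPM in A498 and at most 3 counts in a library of 769-P. CYLD, a deubiquitinase, had a median of 115.9 CPM in A498 and 8.39 CPM in CAKI-2, and the helicase DHX9 568 CPM in 769-P and 97.3 CPM in A498. In shared signalling, TBKBP1, which binds TBK1, had a median of 44.6 CPM in A498 and 5.66 CPM in 786-O. The interferon regulatory factors IRF7 and IRF5 had medians of 45.5 CPM in A498 against 4.89 CPM in 786-O, and of 104 CPM in CAKI-2 against 11.1 CPM in 769-P.

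In interferon output the widest range was that of JAK1, the kinase bound to the type I and type III interferon receptors. JAK1 had 0 counts in each of the 5 CAKI-2 libraries and 239 to 1336 CPM in the libraries of the other lines, so that it was at least 2039-fold lower in CAKI-2 than in A498, with a floor of 3 counts per library. IFNLR1, a chain of the type III receptor, measured 10.6 to 14.2 CPM in CAKI-2, at most 5 counts in A498 and at most 1 count in 769-P. OASL measured 64.0 to 85.3 CPM in A498 and at most 9 counts in 769-P. Interferon-induced genes had unlike levels in CAKI-2. IFIT1 measured 18.5 to 24.7 CPM and DHX58 had the values given above, while OAS2 measured 0.813 to 0.975 CPM and RSAD2 1.25 to 2.05 CPM. A relation of these levels to JAK1 was not tested.

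Over the 16 libraries, the genes with the pattern most like STING1 were FUCA1, CLEC2B and PLPPR2 (Pearson's r of log2 CPM 0.986, 0.985 and 0.985, compared with 12074 other genes that averaged 100 counts or more). For CGAS they were DNAJC14, ADAMTS1 and ABT1 (0.957, 0.949 and 0.945), and for RIGI they were PTCD2, PPM1B and ENSG00000247228 (0.990, 0.972 and 0.972), the last with no symbol of its own in the annotation. The points are 16 libraries of 4 lines, so that these values describe the differences between lines.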

How the data were processed

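Gene counts were used as deposited by the authors, who isolated RNA with a column kit, made Illumina TruSeq Stranded libraries and sequenced them paired-end. The submitters' processing notes name Trimmomatic 0.38, STAR 2.5.2b and GRCh37. The counting tool, its gene models and whether it used strand are not given in the sources used here. Counts were whole numbers without normalization. Gene IDs were matched to GENCODE 44 on GRCh37 (55538 of 57773).

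Genes with at least 60 counts in all (20175, the filter of the study) were tested by quasi-likelihood in edgeR 4.0.16, run under R 4.3.3. The libraries were scaled by TMM, and 16 libraries with 1 mean per line and genotype left 6 residual degrees of freedom. P-values were adjusted by Benjamini-Hochberg over all genes tested. Guide 5 was compared with guide 4 in an edgeR fit of the 8 sgKDM5C libraries with the line as a term. SE was obtained from the log2 fold change and its F statistic, and intervals use it. The fit was tested on counts simulated from its own line means and dispersions. No guide population stood apart in them as the 786-O sgKDM5C 4 library did, so that case was not tested. Libraries of a line were not alike within sampling noise (chi-square of 8.68 to 85.2 per gene). Alternatives were DESeq2 1.42.0, RLE size factors, other filters, a fit per line, the 12 sgCtrl and sgKDM5C libraries, a replicate block, and leaving out libraries or lines.

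The members, gene lists and tests were chosen with earlier results of these data known. From the lists, genes were named when called in a mutant comparison, and otherwise up to 3 per list with the widest range between lines and a mean of at least 20 counts. Of the listed genes, 5 were not matched and are not reported. The other listed genes that are named (the interferons, ZBP1, TLR7, AIM2, IFIT1, ISG15 and those in the closing observations) were chosen after their values were seen.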

Additional observations from a re-analysis of the deposited data

How the results depend on the processing

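Under the alternatives 0 of 10 members were called in the mutant comparisons, except that without the 786-O sgKDM5C 5 library 1 of 10, TLR3, was called in 786-O against sgCtrl and against sgKDM5D (range 0 to 1 over the libraries left out). All 10 members differed between lines throughout, and the pairs of lines called ran from 40 to 45. Over all genes, DESeq2 called 0 to 55 and a fit without the count filter 3 to 297 per mutant comparison, against 0 to 13. Guide numbers did not pair the lines (r of the guide difference from -0.223 to 0.291), and with the guide number as a replicate block 0 of 10 members were called in the mutant comparisons and 40 of 60 line pairs, as without it. Of the values of single genes, 49 changed sign, 24 newly passed the threshold and 1599 did neither. The cause was not tested.

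For the mean with sgKDM5C, leaving out a line turned DHX58 to 0.037 (without CAKI-2), TBK1 to -0.013 (without 769-P) and TLR3 to -0.19 (without 786-O). ADAR, close to 0, was 0.0028 with RLE size factors, 0.00091 with filterByExpr, 0.0045 with no filter, 0.0028 with DESeq2, 0.0019 with 12 libraries, and 0.0058, 0.017 and 0.027 without 786-O, CAKI-2 and 769-P. Leaving out 1 library, the mean ran from -0.051 to 0.16 for CGAS, from -0.046 to 0.16 for RIGI, from -0.24 to 0.24 for TLR3 and from -0.030 to 0.028 for ADAR. In 786-O, TLR3 against sgCtrl ran from -0.38 to 1.53 and STING1 against sgKDM5D from -0.19 to 0.43. STING1 with sgKDM5D in CAKI-2 ran from -0.10 to 0.16 and was -0.0076 with no filter.

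For guide 5 against guide 4, IFIH1 was 0.20 and TLR3 0.0040 without 786-O, DHX58 was 0.156 without 786-O and 0.060 with no replicate block, and TBK1 was 0.021 without 769-P. Leaving out 1 library, IFIH1 ran from -0.31 to 0.20, DHX58 from -0.12 to 0.16, TBK1 from -0.17 to 0.024 and TLR3 from -0.72 to 0.0048. Between lines, TBK1 in CAKI-2 against 769-P was 0.049 with RLE size factors, 0.020 with filterByExpr, 0.049 with DESeq2 and 0.0064 with 12 libraries, and ran from -0.11 to 0.11 without 1 library. In the same way TLR3 ran from -0.12 to 0.84 for 786-O against CAKI-2 and from -0.76 to 0.17 for 786-O against 769-P, and CGAS from -0.36 to 0.098 for 786-O against 769-P.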

Other observations

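In 786-O, 2 libraries differed from the others of the line in separate interferon-induced genes, chosen after their values were seen. The sgKDM5C 4 library held OAS1 at 13.98 CPM and OAS2 at 7.72 CPM, where the other 4 libraries held 3.70 to 6.21 and 1.69 to 2.71 CPM. The library labelled sgKDM5D 2 held RSAD2 at 33.6 CPM, IFIT1 at 52.9 CPM, IFIT2 at 43.7 CPM and OASL at 25.2 CPM, where the other 4 libraries held 1.94 to 4.96, 17.7 to 32.3, 15.6 to 21.6 and 10.4 to 12.1 CPM. Among the sensors, RIGI, TLR3 and IFIH1 were highest in the first of these libraries. DHX58 was highest in the second at 9.76 CPM, but it did not separate the libraries, with 9.12 CPM in the first and 8.72 CPM with sgKDM5D 4. For OAS1, OAS2, RSAD2, IFIT1, IFIT2 and OASL, guide 5 against KDM5C and guide 4 against KDM5D did not share either pattern. Each pattern of these genes therefore rests on 1 library.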
